A study of Mus musculus with 6 samples.

Results

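Contacts between stretches of the same chromosome that lie 10 Mb or more apart were examined in maps of mouse embryonic stem cells. Each autosome was cut into 1 Mb bins, and the contact counts of all 6 libraries were summed into pairs of bins. A pair was taken when its bins started at least 10 Mb apart and its mean count was 10 or more per library. Of 160366 pairs of different bins with contacts, 139586 were that far apart, and 106885 of those passed the count limit. Just inside that limit, 3210 pairs had a mean count of 10 to under 11, and just outside it 3604 had 9 to under 10. The pairs taken held from 95.7% (Del8 replicate 1) to 98.6% (WT replicate 2) of all contacts at 10 Mb or more.

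Hi-C joins pieces of DNA that lie close together in crosslinked nuclei and counts the joined pairs by sequencing. The cells were of strain 129, and 3 libraries were labelled wild type (WT) and 3 Del8. Per the series' design text, one line expressed GFP-tagged CTCF and the other a CTCF without zinc finger 8, with 3 biological replicates. It is not settled by the labels if the WT cells carry that tag, and a contact map holds no marker genes by which the cell type could be checked.

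CTCF binds DNA through its zinc fingers and, together with the ring complex cohesin, sets the borders of chromatin loops and domains. Contact between stretches of a chromosome falls with the distance between them. Beyond the reach of most loops, what remains reflects mainly how the chromosome is packed and how gene-rich, active stretches and gene-poor, inactive stretches each keep company with their own kind, known as A and B compartments.

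Coverage differed between the libraries. Of 47875 autosomal 50 kb bins, 37.7% and 38.0% had lost contacts in WT replicates 1 and 2, while WT replicate 3 had lost 0.0752% and no Del8 library more than 9.31%. Tests and contact values rest on the 27831 bins (58.1%) that were usable in all 6 libraries, which left 54917 of the far pairs for testing, unless all bins are named. Wherever 3 values of a group are given, they follow the replicate numbers, and ± is the SD over the 3 libraries of a group. The median count of such a pair was 27, 28 and 43 for WT, against 58, 45 and 36 for Del8. Coordinates are on mm10, counted from 1, and a bin is given by its start.

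With all bins, chromosomes differed in the number of far pairs they contributed. Chromosome 1 had 10501 members, 62.4% of its far pairs with contacts, and chromosome 19 had 1224, or 99.9%. Chromosome 8, at 98.0%, stood above chromosomes 7 (76.5%) and 9 (86.6%), and its median mean count of 53 exceeded the 31 of chromosome 2. The longest reach of a member was 178 Mb, on chromosome 2. Among pairs of usable 1 Mb bins, this limit, counted over all 50 kb bins, kept 10897 of 10897 at 10 to under 20 Mb. At 80 Mb or more it kept 8672 of 14549. The test also required a mean count of 10 or more on usable 50 kb bins, which left 10802 and 6344 pairs.

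On usable bins, contacts at 10 to 40 Mb took a smaller share in Del8 cells, while those beyond 50 Mb took a share within the WT range. Of the contacts between different 1 Mb bins, 11.4%, 11.4% and 12.1% spanned 10 to under 20 Mb in the WT libraries and 9.37%, 9.66% and 9.36% did so in the Del8 libraries. All Del8 libraries lay below all WT libraries, and their mean was 0.814 times that of WT (9.47% ± 0.172 against 11.6% ± 0.405). The loss had the same size at 20 to under 30 Mb, with a ratio of 0.819, and was smaller at 30 to under 40 Mb, with 0.883, again without overlap of the groups. At 40 to under 50 Mb the groups overlapped (3.31% ± 0.193 against 3.17% ± 0.0818). In each step from 50 to 120 Mb the ratio lay between 1.00 and 1.03 and the groups overlapped.

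The nearer range moved the other way. Contacts at 1 to under 2 Mb held 41.2% ± 2.10 for WT against 45.6% ± 0.808 for Del8, and those at 2 to under 5 Mb were 1.05 times as frequent in Del8. The direction turned at about 5 Mb, short of the 10 Mb limit of the far pairs: the step from 5 to under 10 Mb was already lower in Del8, by a ratio of 0.895. In each step up to 40 Mb the groups were separate, and the two-sided exact permutation test gave p = 0.1, the smallest that 3 against 3 can give. WT replicate 3, the WT library with few lost bins, had the highest share of the 6 libraries in every step from 5 to 120 Mb. Over all 50 kb bins the share at 10 Mb or more overlapped between the groups. WT replicate 1 had 3012687 such contacts among 24036221 autosomal contacts, those within a bin included. Del8 replicate 2 had 6373564 among 46375877, a higher share. WT replicate 3 had 6296545 among 36107570, a higher share than either.

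**Figure D1:**
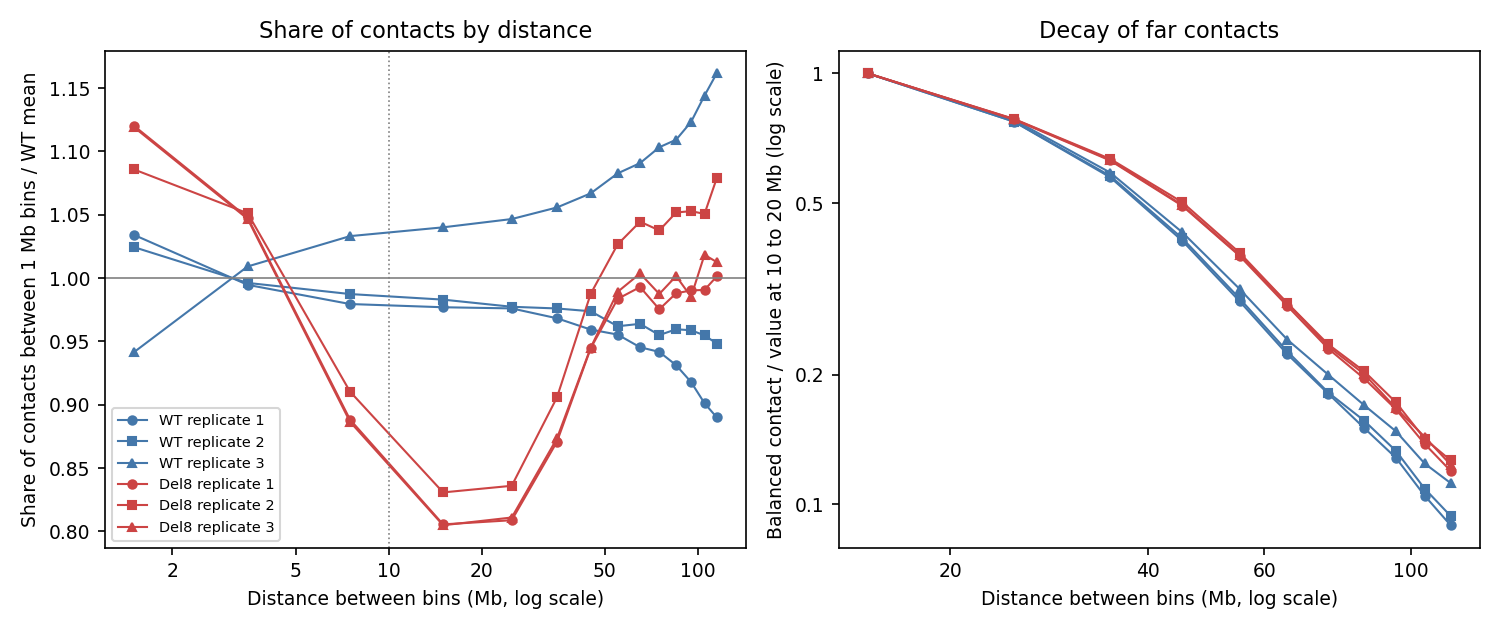
Left, the share of contacts between different 1 Mb bins in each distance step divided by the WT mean, 1 line per library, against distance in Mb on a log axis, with the dotted line at 10 Mb. Right, balanced contact divided by its value at 10 to 20 Mb, both axes log. The Del8 lines dip to about 0.81 of WT between 10 and 30 Mb and return to the WT range beyond 50 Mb, and on the right they run above all WT lines from 20 Mb on.

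Within the far range, contacts were therefore shifted toward the longest distances. Contacts at 10 to under 20 Mb made up 34.1% ± 0.511 of all contacts at 10 Mb or more in WT, but 31.7% ± 0.129 in Del8. The share at 20 to under 40 Mb was also lower in Del8, at 36.6% against 38.0%. At 40 to under 80 Mb the order turned, with 25.1% ± 0.107 in Del8 against 22.3% ± 0.416 in WT, and at 80 Mb or more it was 6.53% ± 0.0867 against 5.62% ± 0.353. None of these 4 bands had overlapping groups (two-sided exact permutation test, p = 0.1 for each and adjusted p = 0.1 over the 4).

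The decay of contact with distance was accordingly flatter in Del8. The slope of log10 contact on log10 distance from 10 to 60 Mb was -0.88, -0.87 and -0.84 for WT, against -0.70, -0.69 and -0.70 for Del8. The groups were separate and differed by 0.168 (p = 0.1 by the exact permutation test). Over 10 to 30 Mb alone the slope differed by 0.0163, so most of the flattening lay beyond. Set to 1 at 10 to 20 Mb, balanced contact at 20 to 30 Mb was 1.01 times that of WT, and the ratio rose to 1.09, 1.19 and 1.25 in the next 3 steps and to 1.27 at 60 to 70 Mb. From there to 120 Mb it stayed between 1.24 and 1.26.

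The flatter decay was seen on each chromosome. On 19 of 19 autosomes, every Del8 library had a flatter slope than every WT library. The difference was smallest on chromosome 6 (0.088) and largest on chromosome 18 (0.263), with a median of 0.173. Chromosomes differed more from each other than the groups did: WT means ran from -1.07 on chromosome 11 to -0.47 on chromosome 16, and Del8 means from -0.88 to -0.32 on the same chromosomes. Chromosomes of one library share its preparation and depth, so the 19 are not independent replicates.

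**Figure D2:**
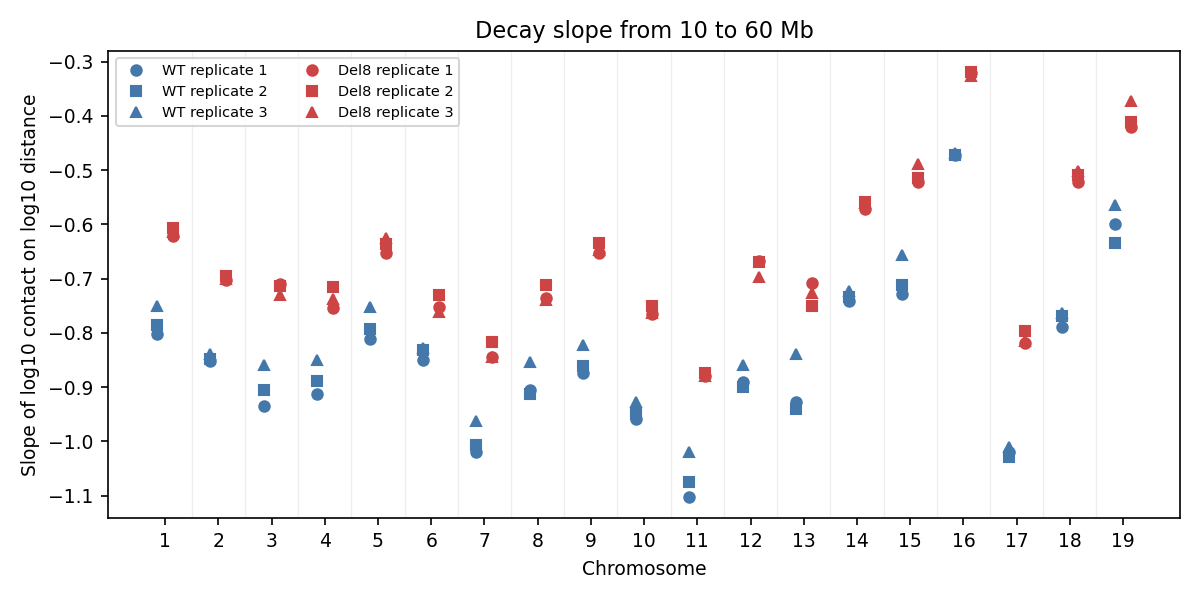
Slope of log10 contact on log10 distance from 10 to 60 Mb for each autosome (horizontal axis) and library, WT in blue and Del8 in red, with a marker shape per replicate number. On all 19 chromosomes the 3 Del8 points lie above the 3 WT points, that is, nearer to 0.

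Far pairs whose bins were both rich in genes had less contact in Del8. Bins were classed by the number of protein-coding genes starting in them, 5 or fewer being gene-poor and 12 or more gene-rich. The measure was contact observed over that expected from the library's own decay with distance on the same chromosome. Over 7068 pairs of gene-rich bins it averaged 1.29, 1.28 and 1.26 in the WT libraries but 1.22 in each of the 3 Del8 libraries, a fall of 0.061 with separate groups. Over 6401 pairs of gene-poor bins it was 1.02, 1.01 and 1.01 for WT, against 1.04, 1.03 and 1.04 for Del8, higher by 0.021 and again separate, although on unbalanced maps, or with all 50 kb bins kept, the groups overlapped. Each of these differences had an exact permutation p of 0.1 and, over the 4 values compared, an adjusted p of 0.2.

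Contact between gene-rich and gene-poor bins did not separate the groups on usable bins. Over 12383 such pairs it averaged 0.880 ± 0.006 for WT against 0.876 ± 0.00396 for Del8 (exact permutation p = 0.4). With all 50 kb bins kept the groups were separate, at 0.958 ± 0.0393 for WT and 0.896 ± 0.00838 for Del8 (exact permutation p = 0.1). The contrast of like with unlike pairs, on the log2 scale, was 0.39, 0.38 and 0.35 for WT against 0.37, 0.35 and 0.37 for Del8, and the groups overlapped (difference -0.01, exact permutation p = 0.4). On usable bins, then, the mean preference of like for like differed by less than the SD of WT (0.0209) but by more than that of Del8 (0.00925). With all 50 kb bins kept the contrast was higher in Del8 by 0.063 and the groups were separate (0.415 ± 0.0276 for WT, against 0.477 ± 0.0136 for Del8, exact permutation p = 0.1). On usable bins without WT replicates 1 and 2, the contrast was higher in Del8 by 0.0088. Without WT replicate 3 the difference was -0.0243 and the groups were separate (exact permutation p = 0.1).

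Chromosome by chromosome, the gene-rich fall was the more regular of the changes. Gene-rich pairs were lower in every Del8 library than in every WT library on 16 of 19 chromosomes, overlapped on 2 and were higher on 1, chromosome 17. Chromosome 10 had the largest fall, from 1.36 to 1.18 in the mean. Gene-poor pairs were higher on 8 chromosomes, overlapped on 9 and were lower on 2, chromosomes 1 and 6. Chromosome 8, which contributed the most gene-poor pairs (1877), rose in that class from 0.972 to 1.01.

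**Figure D3:**
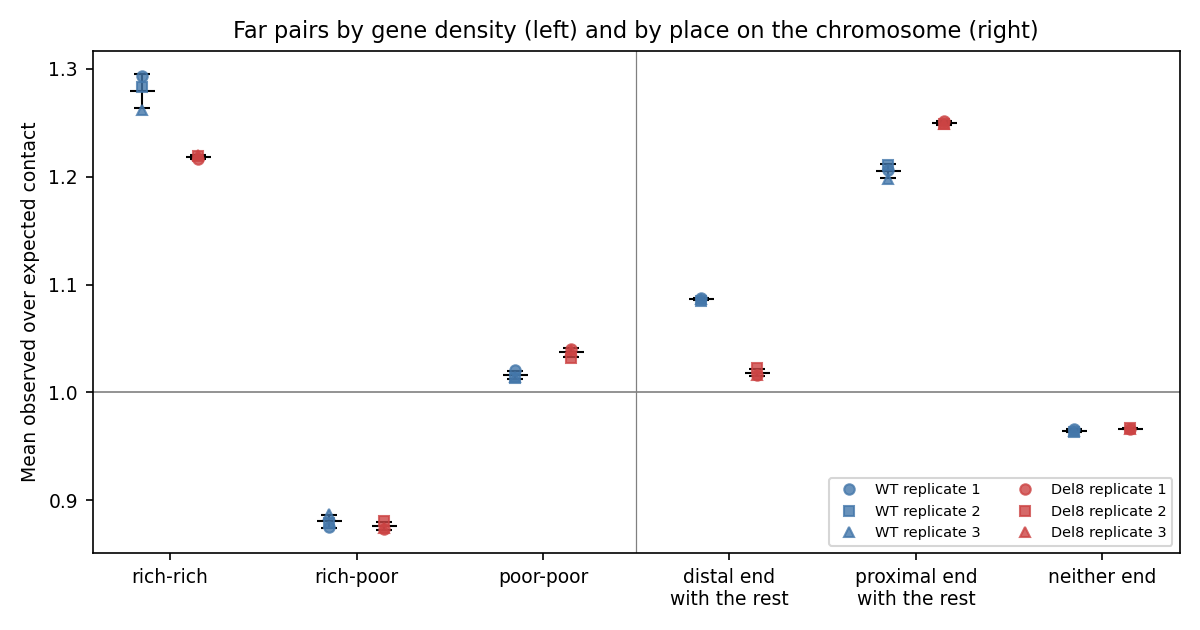
Mean observed over expected contact of far pairs in each library (WT blue, Del8 red, marker shape by replicate), with the group mean and SD (n = 3) in black. Left of the line are the 3 gene-density classes. Right of it are pairs of the distal or the proximal 15 Mb with the rest, without pairs that join both ends, and pairs with neither end. Gene-rich pairs and pairs with the distal end are lower in Del8, gene-poor pairs and pairs with the proximal end are higher, and gene-rich with gene-poor pairs overlap.

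Far contacts of the distal end of a chromosome with its middle part were also lower in Del8. This split was chosen after the maps were seen and is given without a test. Mouse autosomes carry their centromere at the end with the low coordinates, called proximal here, and the distal end is the other one. The 13306 pairs that join the last 15 Mb to the rest of the chromosome averaged 1.09 in every WT library and 1.02 in every Del8 library. Of these pairs 597 (4.49%) fell and 73 (0.549%) rose in the test of single pairs described below, where 1.91% and 0.707% of all far pairs did. Pairs of the first 15 Mb with the rest went the other way, from 1.20 ± 0.00644 to 1.25 ± 0.00156. The 971 pairs of the first with the last 15 Mb were kept apart from both classes. They differed little, at 1.01 ± 0.00188 in WT and 1.00 ± 0.00596 in Del8, though without overlap, and 4 rose and 1 fell.

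The distal fall was also present without chromosome 6 and outside gene-rich pairs. Without chromosome 6 it was from 1.08 to 1.03. It was larger where both bins were gene-rich (1.34 ± 0.00813 against 1.22 ± 0.00363), but pairs that were not both gene-rich also fell, from 1.04 to 0.985. On 18 of 19 chromosomes every Del8 library lay below every WT library, and on chromosome 19 the groups overlapped. After chromosome 6 the largest difference was on chromosome 14, from 1.5 to 1.34. Pairs with neither end hardly differed, at 0.964 ± 0.0012 and 0.966 ± 0.000514, and without chromosome 6 they overlapped. Within that class, pairs of gene-rich bins were lower in Del8 without overlap (1.21 ± 0.0158 against 1.16 ± 0.00169), and 3.19% of them fell, while the others were higher (0.929 ± 0.00181 against 0.939 ± 0.000782).

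**Figure D4:**
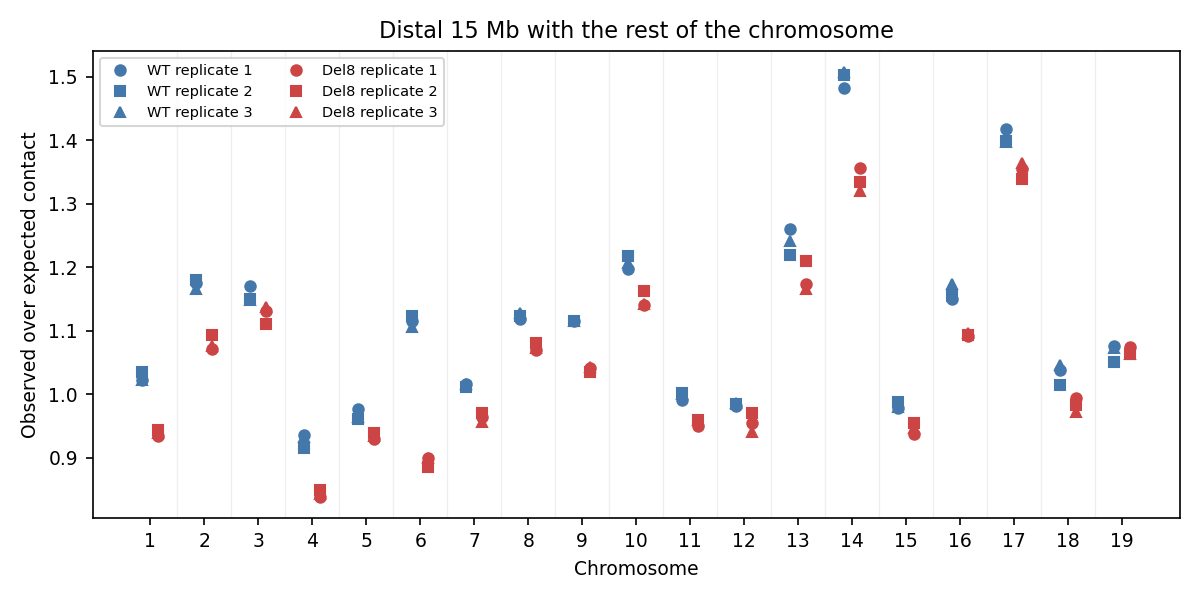
Mean observed over expected contact between the last 15 Mb of each autosome and the rest of it, at distances of 10 Mb or more, by chromosome (horizontal axis) and library. Red Del8 points lie below all blue WT points on 18 of 19 chromosomes, and the groups overlap on chromosome 19.

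Few single far pairs passed the test. With edgeR's quasi-likelihood test and Benjamini-Hochberg adjustment over all 66214 pairs of different bins, 388 far pairs rose (0.707% of 54917) and 1050 fell (1.91%), 2.62% in all, at an adjusted p under 0.05. Over pairs of all distances 1.91% rose and 3.13% fell, 5.04% in all. Among the 11297 pairs nearer than 10 Mb, 7.77% rose and 9.03% fell, 16.8% in all. Nearer pairs also hold more counts, and neither the part of depth in this nor the difference itself was tested. At the unadjusted level of 0.05, 6919 far pairs passed. The median rise was 1.59-fold and the median fall was to 0.697 of WT, and of the 1438 pairs called either way 1359 (94.5%) had groups that did not overlap, as had 17.0% of all far pairs. Counts were also simulated at this depth, with the same spread between libraries for every pair (a CV of 4.05%) and with the expected contact known. There 48% of 1.5-fold and 84% of 2-fold rises were recovered, as were 50% of falls to 0.5 and 22% of falls to 0.667. Spread that differs by pair and errors of the expected contact were not simulated, so recovery in the real counts may be lower. With all 50 kb bins kept, edgeR called 0 far pairs, and 9748 of 106598 passed at an unadjusted p under 0.05.

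Falls were spread over the whole far range and were densest among gene-rich pairs. They made up 2.75% of pairs at 10 to 19 Mb, 1.72% at 20 to 39 Mb, 1.81% at 40 to 79 Mb and 1.36% at 80 Mb or more. Among gene-rich pairs 326 fell (4.61%) and 63 rose, among gene-poor pairs 56 fell (0.875%) and 42 rose, and among mixed pairs 169 fell (1.36%) and 90 rose. Gene-rich pairs also had the most counts, with a median of 69.3 per library against 29.3 in gene-poor pairs, and what depth contributes to their share of calls was not tested. Chromosome 6 held 5.0% of tested far pairs but 19.1% of the rises and 17.0% of the falls.

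The far pair with the lowest adjusted p lay on chromosome 6. The bins starting at 72000001 and 143000001, 71 Mb apart, shared 766, 697 and 890 contacts in the WT libraries but 57, 54 and 19 in the Del8 libraries. Every WT count far exceeded every Del8 count, although WT replicates 1 and 2 had the lowest depth of all. Relative to distance the pair stood at 8.31 ± 0.57 for WT against 0.681 ± 0.326 for Del8, a log2 difference of -3.60 (edgeR, SE 0.10, adjusted p = 2.29e-97). The first of these bins holds Tcf7l1, which codes for a transcription factor that represses targets of Wnt signalling in embryonic stem cells. The second holds the lower coordinate of Sox5, which codes for a developmental transcription factor.

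The neighbours of that pair changed with it, but not all of them. The pair of bins 73000001 and 143000001, the former with the dynein gene Dnah6, fell from 233, 275 and 342 to 22, 13 and 9 contacts (log2 difference -3.91, edgeR, adjusted p = 3.64e-62). Bins 72000001 and 142000001, the latter with the sialyltransferase gene St8sia1, went from 333, 296 and 443 to 57, 28 and 26 (-3.04, adjusted p = 6.38e-63). By contrast, bins 73000001 and 142000001 had only 10, 12 and 22 contacts in WT against 31, 20 and 19 in Del8 (0.93, edgeR, adjusted p = 0.0717). The high WT contact thus met at a point from opposite corners, and the other corners were not high. Of 88 tested pairs within 10 Mb of bins 72000001 and 143000001, a window set after the pattern was seen, 36 fell and 0 rose by edgeR. Over all tested far pairs of chromosome 6, these included, 6.51% fell and 2.69% rose, and over all far pairs 1.91% and 0.707%. At an unadjusted p under 0.05, 50 of the 88 were lower and 2 higher, where 6919 of all 54917 far pairs passed either way. Of the 6 to which DESeq2 gave an adjusted p, it called 5 lower and 0 higher.

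At 50 kb the point could be placed. Over all 50 kb bins, the largest count between these stretches was at the bins starting at 72600001 and 143100001 in each WT library. It was 32, 49 and 41 contacts, while no pair of 50 kb bins there exceeded 4 in a Del8 library. Around the first position lie Elmod3, Retsat, an enzyme gene of retinoid metabolism, Tgoln1, which codes for a protein of the trans-Golgi network, and Tcf7l1. C2cd5 ends at the second position, and Etnk1, an ethanolamine kinase gene, lies just beyond it. In the 1 Mb squares around this point, stretches on the low-coordinate sides of both positions stood at 4.92 ± 0.12 times the expected contact in WT but at 0.943 ± 0.163 in Del8. For the high-coordinate sides of both the values were 7.46 ± 0.444 and 0.774 ± 0.363.

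The other squares were lower in WT than in Del8. The low side of the first position with the high side of the second stood at 0.297 ± 0.0521 for WT against 1.02 ± 0.356 for Del8, and the high side of the first with the low side of the second, less depleted, at 0.725 ± 0.0256 against 1.28 ± 0.275. Contact across each position itself was likewise low in WT. Across the first it was 0.572 ± 0.0356 against 0.948 ± 0.0201 in Del8, and across the second 0.498 ± 0.0131 against 0.850 ± 0.0246. In each square all WT libraries lay on the same side of all Del8 libraries, WT replicate 3 included. These squares were placed after the pattern was seen and carry no test, and whether the order of DNA along chromosome 6 is the same in both lines was not tested.

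**Figure D5:**
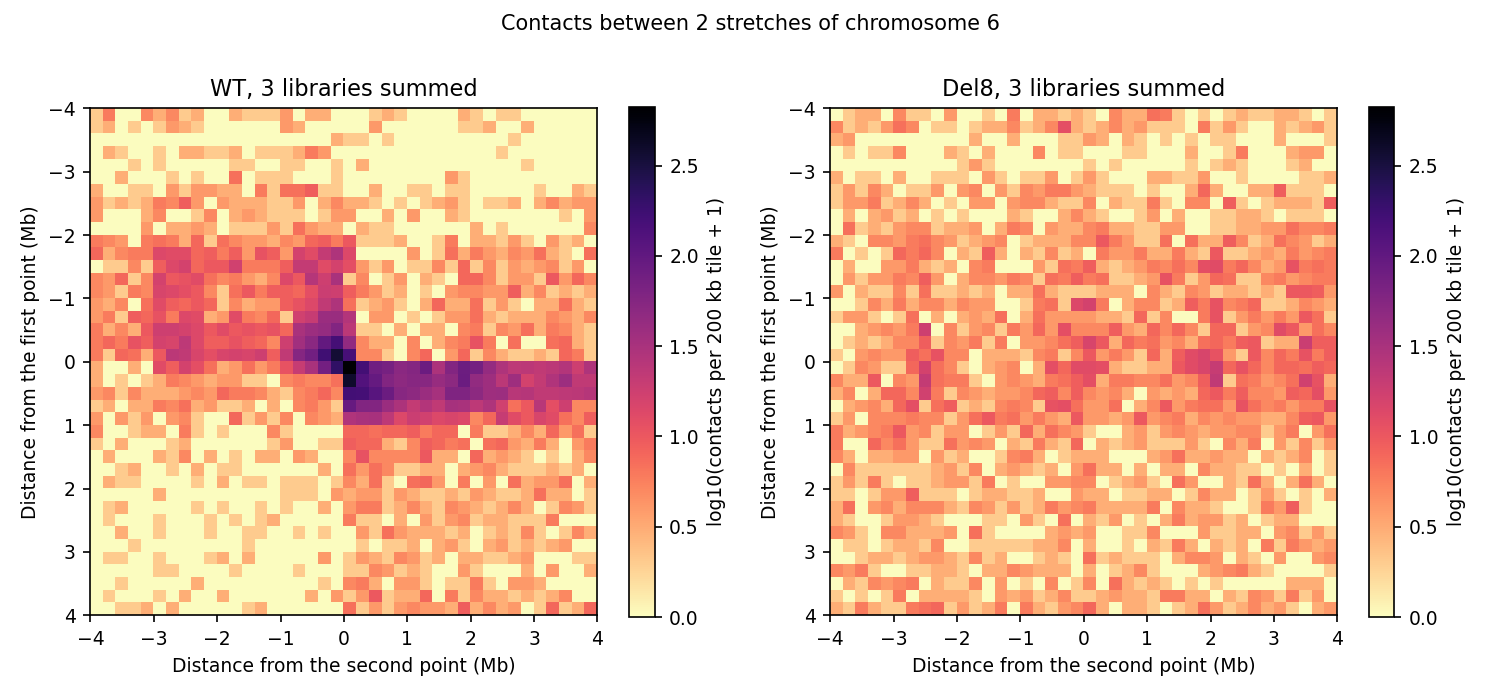
Contacts between the stretches around the first and the second position on chromosome 6, over all 50 kb bins, summed over 3 WT libraries (left) and 3 Del8 libraries (right). Axes give the distance in Mb from the first (vertical) and second (horizontal) position, and the shade gives log10 of contacts per tile plus 1. In WT a block touches the crossing point from the upper left and the lower right, with the other corners sparse, and in Del8 no block is seen.

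Rises on chromosome 6 were counted beside the block. Of 74 rises, 33 (44.6%) lay 69 to 73 Mb apart, the distance of the block, as did 87 of the 2748 tested far pairs of the chromosome (3.17%). Moreover, 61 of the 74 (82.4%) joined a bin below the first position to one between both positions, as did 1134 of the tested pairs (41.3%). Both counts were chosen after the block was seen, and the block's part in these rises was not tested. One rise joined the bins at 28000001 and 99000001, with 10, 10 and 12 contacts in WT and 48, 22 and 24 in Del8. With the block left out of the expectation, a choice made after it was seen, this pair lost its call (0.91, edgeR, adjusted p = 0.0948), and 340 far pairs rose and 1008 fell in all. With chromosome 6 left out altogether, 305 rose and 829 fell.

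Outside chromosome 6, well-covered pairs also fell. Among pairs with a mean count of 100 or more, a limit set after counts were seen, the largest fall joined 140000001 and 151000001 on chromosome 4, which hold Igsf21, an immunoglobulin superfamily gene, and Camta1, a calmodulin-binding transcription activator. They shared 297, 335 and 467 contacts in WT, but 298, 245 and 183 in Del8, and contact over expectation dropped from 1.75 ± 0.0883 to 0.96 ± 0.0472 (log2 difference -0.87, edgeR, adjusted p = 5.76e-19). Counts of the groups overlap, but once scaled by depth and bias they do not. On chromosome 10, the bins at 80000001 and 127000001, with 53 and 45 genes, fell from 3.22 ± 0.304 to 2.05 ± 0.175 (-0.68, adjusted p = 2.83e-12).

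The largest rises of well-covered pairs ran from 0.57 to 0.65 on the log2 scale. The bins at 86000001 and 101000001 on chromosome 11, with 11 and 44 genes, had 144, 132 and 208 contacts in WT, but 490, 347 and 291 in Del8. All Del8 counts exceeded all WT counts, and contact over expectation went from 1.32 ± 0.121 to 2.06 ± 0.139 (log2 difference 0.65, edgeR, adjusted p = 2.67e-09). On chromosome 14 the bins of Rbm26 and Mbnl2, both genes of RNA-binding proteins, 15 Mb apart, rose from 2.23 ± 0.131 to 3.36 ± 0.186 (0.59, adjusted p = 0.0014), a call lost under scaling by library alone (0.28 with TMM factors, edgeR, adjusted p = 0.221, and 0.28 with DESeq2's size factors, adjusted p = 0.232). On chromosome 7 the bin at 6000001, with the imprinted genes Peg3, Zim1 and Usp29, rose with the bin at 30000001 from 1.65 ± 0.157 to 2.44 ± 0.254 (0.57, adjusted p = 0.000474), a call lost with DESeq2's size factors (0.36, edgeR, adjusted p = 0.055).

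Outside chromosome 6, the largest folds belonged to pairs with few contacts. The largest rise joined 21000001 and 78000001 on chromosome 17, bins with the zinc finger gene Zfp53 and with Crim1, at 2, 0 and 5 contacts in WT and 26, 20 and 13 in Del8 (log2 difference 2.34, edgeR, SE 0.53, adjusted p = 0.000826). On chromosome 4 the bins of Lingo2 and Focad had 0, 4 and 6 contacts in WT and 24, 17 and 10 in Del8 (1.77, SE 0.50). On chromosome 8, bins 21000001 and 91000001, the latter with Irx3, a homeobox gene, and Fto, had 4, 2 and 3 against 18, 18 and 15 (1.69, SE 0.52). These rises start from counts near 0 in WT, so their fold is poorly known. The call of the Lingo2 pair was lost without WT replicate 1 or Del8 replicate 1 (edgeR, adjusted p = 0.172 and 0.0899), and that of the Irx3 pair without WT replicate 2 or 3 or Del8 replicate 2 or 3 (edgeR, adjusted p from 0.0769 to 0.223).

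Among the falls of this kind outside chromosome 6, the largest joined bins of chromosome 2 that lie 149 Mb apart and hold Celf2, an RNA-binding protein gene, and Itch, a ubiquitin ligase gene. The counts were 10, 13 and 20 in WT and 5, 7 and 7 in Del8 (log2 difference -1.71, edgeR, SE 0.44, adjusted p = 0.00488). On chromosome 7 the bins of Sipa1l3 and Gabrg3, a GABA receptor gene, went from 16, 15 and 25 to 10, 5 and 9 contacts (-1.62, SE 0.39). On chromosome 5 the bins of Ldb2 and Acacb, an acetyl-CoA carboxylase gene, went from 12, 17 and 19 to 8, 9 and 8 (-1.56, SE 0.40). Without Del8 replicate 1 the pairs on chromosomes 2 and 5 lost their call (edgeR, adjusted p = 0.101 and 0.082). Without WT replicates 1 and 2, these and the 3 rises above were not called (edgeR, adjusted p from 0.0934 to 0.343), while with far pairs alone in the fit only the Irx3 pair of these lost its call (0.0668). Of the 10 largest falls by fold, neighbours left out, 8 lay on chromosome 6, and 6 of them had the bin at 142000001.

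Some of the strongest far contacts had similar values in both lines and did not pass the test. On chromosome 7 the bins at 45000001 and 127000001, 82 Mb apart with 66 and 51 genes, stood at 7.83 ± 1.05 times the expected contact in WT and 7.42 ± 0.462 in Del8, with a log2 difference of -0.08 (edgeR, SE 0.11, adjusted p = 0.79). On chromosome 10 the bins at 81000001 and 128000001, each with 50 genes, stood at 6.09 ± 0.403 and 6.23 ± 0.631 (log2 difference 0.03, SE 0.09). Their neighbours 80000001 and 127000001 fell, as given above, so strong pairs beside each other did not change alike. Pairs of 80000001 with 128000001 and of 81000001 with 127000001 were also called lower in Del8. With all 50 kb bins kept these calls were lost (-0.44 and -0.27, edgeR, adjusted p = 0.469 and 0.48). On chromosome 8 the bins of Crtc1 and Fanca, 53 Mb apart, fell from 7.11 ± 0.813 to 5.90 ± 0.212 (-0.23, edgeR, SE 0.06, adjusted p = 0.00965), a call lost without WT replicate 1 or 2 or Del8 replicate 3 (edgeR, adjusted p from 0.0581 to 0.155). It was also lost with TMM factors (-0.04, edgeR, adjusted p = 0.826), with DESeq2's size factors (-0.05, 0.806), with offsets from chromosome and distance only (-0.12, 0.359) and with far pairs alone in the fit (-0.25, 0.0549). Without WT replicates 1 and 2 its log2 difference was -0.06. The Fanca bin also fell with that of Cacna1a, 39 Mb apart, from 5.68 ± 0.655 to 4.52 ± 0.0862 (-0.31, edgeR, adjusted p = 0.000186). That call was lost with TMM factors (-0.23, edgeR, adjusted p = 0.0699), with DESeq2's size factors (-0.23, 0.0696) and with offsets from chromosome and distance only (-0.17, 0.154).

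The highest values of all were of another kind. The bins at 4000001 and 88000001 on chromosome 1 had 18.6 ± 1.08 times the expected contact in WT and 18.7 ± 1.71 in Del8. On chromosome 2 the bins at 4000001 and 124000001, 120 Mb apart, stood at 11.8 ± 3.65 and 9.98 ± 1.72. Counted over all 50 kb bins, 80.5% to 89.8% of the contacts of that second pair came from a single pair of 50 kb bins in each library. These bins start at 4500001 and 124000001. Such a concentration was not present on chromosome 1, where the largest 50 kb pair held 16.9% or less, again over all 50 kb bins.

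Gene groups were read from pairs in which both bins held a listed gene. Among 267 pairs of bins with developmental transcription factor genes, which Polycomb proteins keep silent in stem cells, 4 rose and 7 fell, or 1.5% and 2.62% against 0.707% and 1.91% of all far pairs, with a median log2 difference of -0.02 against -0.01. At an unadjusted p under 0.05, 15 of these pairs were higher and 20 lower, where 6919 of all 54917 far pairs passed either way. With TMM factors edgeR called 7 higher and 10 lower, against 736 and 2562 of all far pairs. DESeq2 called 0 higher and 2 lower of the 60 to which it gave an adjusted p. Over all far pairs it called 96 and 477 of 10140. The largest rise joined the bins of Sox1 and Irx3 on chromosome 8, 79 Mb apart, with 25, 39 and 65 contacts in WT and 163, 109 and 96 in Del8 (0.72, edgeR, adjusted p = 0.00121), a call lost without WT replicates 1 and 2 (0.0721). The largest fall joined the bin of Nkx2-1, Nkx2-9 and Pax9 with that of Gsc on chromosome 12, from 0.876 ± 0.129 to 0.488 ± 0.0972 of the expected contact (-0.89, adjusted p = 0.00182), a call lost without Del8 replicate 1 (edgeR, adjusted p = 0.0618), with TMM factors (-0.45, 0.199) and with DESeq2's size factors (-0.46, 0.193). The pair with the most contacts, Lhx5 with Uncx on chromosome 5, differed by 0.03 (adjusted p = 0.912).

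Of the other lists, that of clustered Zfp zinc finger genes had the highest share of rises. With 5 or more Zfp genes in each bin, 3 of 22 pairs rose (13.6%) and 0 fell by edgeR, against 0.707% and 1.91% of all far pairs. The median log2 difference was 0.11. Their median count was 79.9 per library against 39.5 for all far pairs, and what depth contributes to these calls was not tested. In mean contact over expectation of these pairs the groups overlapped, at 2.00 ± 0.198 in WT and 2.16 ± 0.0604 in Del8. At an unadjusted p under 0.05, 6 of the 22 were higher and 1 lower, where 6919 of all 54917 far pairs passed either way. DESeq2 called 2 higher and 0 lower of the 8 to which it gave an adjusted p. Over all far pairs it called 96 and 477 of 10140. With TMM factors edgeR called 1 higher and 2 lower, against 736 and 2562 of all far pairs. The bins 6000001 and 24000001 of chromosome 7 rose from 4.15 ± 0.312 to 5.37 ± 0.278 (0.38, edgeR, adjusted p = 0.00109), a direction that did not hold under scaling by library alone (-0.00967 with TMM, -0.0145 with DESeq2's size factors) and a call lost without WT replicate 3 (adjusted p = 0.0501) or with offsets from chromosome and distance only (0.21, adjusted p = 0.212). Of 150 pairs with ribosomal protein genes 8 fell (5.33%) and 1 rose, against 1.91% and 0.707% of all far pairs. Their median count was 87.1 per library against 39.5 for all far pairs, and among all gene-rich pairs 4.61% fell. What depth or gene density contributes was not tested. At an unadjusted p under 0.05, 12 ribosomal pairs were higher and 21 lower, and edgeR with TMM factors called 4 higher and 9 lower. Of the 70 to which DESeq2 gave an adjusted p, it called 1 higher and 4 lower. The counts over all far pairs at these settings are those given with the Zfp pairs.

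The remaining lists had no call at an adjusted p under 0.05 with edgeR. They were 13 pairs of pluripotency genes (median -0.18), 10 of imprinted genes (-0.10), 26 of olfactory and vomeronasal receptor clusters (-0.03) and 9 of genes for CTCF and cohesin factors (-0.02). The pluripotency pair with the most contacts, Esrrb with Tcl1 on chromosome 12, 19 Mb apart, had 231, 216 and 385 contacts in WT and 399, 317 and 238 in Del8 (-0.18, edgeR, adjusted p = 0.247). Imprinted pairs stood at 1.45 ± 0.0232 in WT and 1.33 ± 0.047 in Del8 without overlap, and the pluripotency pairs overlapped at 1.21 ± 0.099 and 1.11 ± 0.0378. At an unadjusted p under 0.05, 2 pluripotency and 3 imprinted pairs were lower and 0 higher, 2 olfactory pairs were higher and 1 lower, and 0 of the CTCF and cohesin pairs passed. DESeq2 gave an adjusted p to 4 to 7 pairs of each list and called 0 of them, and edgeR with TMM factors called 2 pluripotency, 2 imprinted and 3 olfactory pairs lower and 1 olfactory and 1 CTCF and cohesin pair higher. Of all 54917 far pairs, 6919 passed at that unadjusted level, and with TMM factors 736 were called higher and 2562 lower.

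For each 1 Mb bin the contacts at 10 Mb or more were also set against its contacts at 1 to under 10 Mb. The median of this far share over usable bins was 0.493, 0.501 and 0.569 for WT, against 0.424, 0.450 and 0.427 for Del8. The median usable bin thus reached less far in Del8. Over all 50 kb bins the share of contacts at 10 Mb or more, given above, overlapped between the groups. Relative to each library's median, 439 of 1693 bins rose (25.9%) and 438 fell (25.9%) by limma with Benjamini-Hochberg adjustment. Centring on the median by itself brings these numbers close to each other. Without it 7 bins rose and 1204 fell.

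Bins split by gene density here as well. Among 602 gene-poor bins 228 rose (37.9%) and 98 fell (16.3%). Among 555 gene-rich bins the balance was the reverse, with 80 that rose (14.4%) and 229 that fell (41.3%). The median log2 difference was 0.05 in the former and -0.05 in the latter. By chromosome, the median ran from -0.11 on chromosome 4, where 52 of 97 bins fell and 16 rose, to 0.07 on chromosome 16, where 25 of 58 rose and 2 fell.

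The bins with the largest falls of the far share were those of the chromosome 6 block. The bin at 142000001, with St8sia1, had a far share of 0.667, 0.625 and 0.702 in WT and 0.288, 0.312 and 0.276 in Del8 (log2 difference -0.92 after centring, limma, adjusted p = 2.82e-07). The bins at 73000001, 143000001 and 72000001 of the same chromosome followed with -0.81, -0.69 and -0.60. Next came chromosome 4. Its bin at 141000001, with Fhad1, went from 0.613, 0.608 and 0.655 to 0.351, 0.364 and 0.346 (-0.56, limma, adjusted p = 1.14e-06), and those at 151000001 (Camta1), 150000001 (Rere, a transcriptional corepressor gene) and 152000001 (Acot7, a thioesterase gene) fell by 0.51, by 0.50 and by 0.44 on the log2 scale. Before the last of these came the bin at 117000001 on chromosome 14, with -0.45 and a far share of 0.454, 0.451 and 0.536 in WT against 0.283, 0.315 and 0.282 in Del8. The 4 bins of chromosome 4 lie in its distal part and include a bin of the strongest well-covered fall. With all 50 kb bins kept, the bins at 73000001, 143000001 and 72000001 of chromosome 6 lost their call (limma, adjusted p from 0.0527 to 0.262). So did those at 150000001 and 152000001 of chromosome 4 and at 117000001 of chromosome 14 (limma, adjusted p from 0.0527 to 0.242). Each of these bins stayed lower in Del8.

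Several of the largest rises lay at the proximal end. The first bin with sequence on chromosome 13, at 3000001, rose from 3.34, 3.28 and 3.56 to 5.11, 4.79 and 4.35 (log2 difference 0.75 after centring, limma, adjusted p = 6.12e-05). On chromosome 1 the bin at 4000001, with Sox17, a gene of an endoderm transcription factor, had a far share of 5.94, 6.07 and 7.52 in WT and 7.91, 8.08 and 9.33 in Del8 (0.64, adjusted p = 0.00163). The Peg3 bin of chromosome 7, named above for its pairs, rose from 2.32, 2.30 and 2.52 to 2.95, 2.91 and 2.82 (0.54, adjusted p = 3.92e-05). In all 3 bins the Del8 libraries lay above all WT libraries, and far contacts outnumbered nearer ones in every library. Nearer contacts were counted with usable bins only, and bins at the proximal end have such neighbours mainly on 1 side. The Sox17 bin had 725, 704 and 1128 far contacts in WT, so its nearer contacts were few. What this contributes to the high far shares was not tested. The bin of Epm2a, at 11000001 on chromosome 10, and that of Ptprg, at 11000001 on chromosome 14, rose by 0.47 and 0.46 after centring. With all 50 kb bins kept, the Ptprg bin changed to -0.0408, and the other rises named here lost their call. The values were 0.311 for the bin on chromosome 13 and 0.232 for the Sox17 bin (limma, adjusted p = 0.116 and 0.345). For the Peg3 and Epm2a bins they were 0.0177 and 0.0868 (limma, adjusted p = 0.927 and 0.428).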

How the data were processed

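The deposited values were raw contact counts of pairs of 50 kb bins, 1 file per library, and the build was mm10, as the submitters' processing notes name it. For the aligner and read-pair filters, no source used here gives a name. Replicate numbers came from the titles. Counts were summed into 1 Mb pairs over 50 kb bins whose coverage, scaled per library, reached 0.5 of the third highest library and exceeded 0.1 of the library's own scale everywhere, with 5 or more such bins per 1 Mb. Gene-poor regions are under-represented. Maps were balanced by iterative correction per chromosome, and expected contact was the library's mean at that distance on that chromosome.

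Pairs were tested with edgeR 4.0.16 (R 4.3.3), with bias and expectation as offsets and a mean count of 10 or more, and far shares with limma 3.58.1 (50 or more contacts in each distance class). Single values were compared by two-sided exact permutation of the 6 libraries. DESeq2 1.42.0 and TMM scaling were alternatives. Scripts were tested on simulated data. Gene positions are RefSeq's for that build, without strand.

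The pairs, lists and the screen of bins were chosen with earlier results of these data known. Named pairs were the 10 largest rises and falls with adjusted p under 0.05 and groups that do not overlap, skipping neighbours within 2 Mb, plus per list the pair with the most contacts and the extremes, and the 5 bins with the largest change each way. Others were chosen after their values were seen: the strongest pairs, those outside chromosome 6 and those with a mean count of 100 or more. Not each of the pairs so chosen is described. No pairing by replicate number was seen in single far pairs: deviations of same-numbered libraries correlated at 0.0099, -0.0023 and 0.0031. Those of differently numbered libraries correlated at -0.0081 to 0.0045. With median counts of 27 to 58 per pair, counting noise could hide a pairing, so it was not excluded.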

Additional observations from a re-analysis of the deposited data

How the results depend on the processing

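Depth limits most far pairs, with a median mean count of 39.5 per library, and 58.1% of 50 kb bins entered. With all bins kept, edgeR called 0 far pairs either way (9748 of 106598 at an unadjusted p under 0.05), and limma called 2 bins with a higher and 5 with a lower far share. The counts of far pairs rising and falling (388 and 1050) became 736 and 2562 with TMM factors, 700 and 2626 with DESeq2's size factors, 557 and 627 with offsets from chromosome and distance only, 96 and 477 with DESeq2 (which gave an adjusted p to 10140 far pairs), 202 and 637 with far pairs alone in the fit, and 126 and 374 without WT replicates 1 and 2, where a single WT library is assumed to vary like Del8. Leaving out 1 library gave 216 to 291 rises and 625 to 787 falls, both lowest without Del8 replicate 1, with 247 and 251 rises without Del8 replicates 2 and 3. With the replicate number as a block they were 392 and 1010, of which 354 and 946 were shared, and the bins 448 and 428. No pairing by these numbers was seen, though it was not excluded. Without centring, 7 bins rose and 1204 fell. The gene-density contrast turned to 0.063 with all bins, where the groups separate, and to 0.0088 without WT replicates 1 and 2, contact of gene-rich with gene-poor bins to 0.0054 on unbalanced maps, the chromosome 7 pair of 6000001 and 24000001 to -0.00967 with TMM and -0.0145 with DESeq2's size factors, and the Ptprg bin to -0.0408 with all bins. The cause was not tested. The decay slope and the gene-rich class kept their direction and separation under every alternative run, and gene-poor pairs kept their direction. Of the values of single pairs and bins, 1188 kept direction and call, 209 lost the call, 11 gained it and 3 turned.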
